A study of Homo sapiens with 6 samples.

Results

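The transcription factor p53 is known to activate the 10 genes followed here, namely MDM2, CDKN1A, BTG2, SESN1, TP53INP1, RRM2B, BBC3, FAS, GDF15 and ZMAT3. Each gene was taken as a fixed span on hg19, given in whole kb, with 5 kb added on both sides. Every listed peak that shared at least 1 bp with this window was counted. The start edge and end edge below are the edges of this span, which may differ from annotated gene starts and ends. The 10 windows covered 424 kb, or 0.0137% of the length spanned by the lists, and held 58 of the 84817 peaks listed in the series. The rule for the windows uses no peak value, but the members and windows were chosen with earlier results of these data known.

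The peaks came from chromatin immunoprecipitation with sequencing in LNCaP, a human prostate cancer line that responds to androgen and carries wild-type p53. The cells were exposed for 6 h to 1 µM BMH-21, a DNA-intercalating inhibitor of RNA polymerase I (Pol I), or to the solvent DMSO. For each treatment there was 1 library with an antibody against Pol I, the enzyme that makes the ribosomal RNA precursor, and 1 with an antibody that recognises RNA polymerase II (Pol II) when serine 5 of its C-terminal domain is phosphorylated. The 4 groups were thus BMH-21 Pol I, DMSO Pol I, BMH-21 Pol II and DMSO Pol II, and 2 input libraries were not analysed here. With 1 library per group, differences between treatments carry no replicate error and no p-value. Read depth is unknown, because the lists hold peaks and no read counts. Pol II below means the phosphorylated form, so less phosphorylation and less Pol II cannot be told apart.

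p53 is a tetrameric transcription factor that is held at a low level by the ubiquitin ligase MDM2 and accumulates after DNA damage and after disturbance of ribosome production, when free ribosomal proteins bind MDM2. It binds pairs of a short degenerate DNA element and activates genes for cell cycle arrest, repair, antioxidant defence and cell death. Pol II phosphorylated at serine 5 is typical of the start of genes, where the enzyme has begun transcription.

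The letters before annotated gene starts are shown for some members with a listed peak within 2 kb of the start edge of their span. SESN1 and BBC3 were shown because a Pol II peak lay within 2 kb of the start edge of their span, and MDM2, GDF15 and BTG2 were added after their values were seen, because a DMSO Pol I peak lay there. Each sequence is the 250 bases before an annotated start, read in the direction of transcription, from RefSeq on GRCh38.p14. These positions were not converted to hg19, the build of the peaks. Capitals mark letters found on either strand. They are the p53 decamer, which is 1 of the pair of elements p53 binds, the TATA box as TATAAA, the CCAAT box as CCAAT, the GC box as GGGCGG, the E-box as CACGTG and the cell cycle homology element as TTTGAA.
SESN1, outermost start, chr6:109094847-109095096, minus strand: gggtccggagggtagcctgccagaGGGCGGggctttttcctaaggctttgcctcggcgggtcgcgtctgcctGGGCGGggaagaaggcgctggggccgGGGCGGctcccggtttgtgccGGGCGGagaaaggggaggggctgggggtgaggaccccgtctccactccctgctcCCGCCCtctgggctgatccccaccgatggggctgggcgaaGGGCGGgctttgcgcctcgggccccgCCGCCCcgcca
SESN1, innermost start, chr6:109008989-109009238, minus strand: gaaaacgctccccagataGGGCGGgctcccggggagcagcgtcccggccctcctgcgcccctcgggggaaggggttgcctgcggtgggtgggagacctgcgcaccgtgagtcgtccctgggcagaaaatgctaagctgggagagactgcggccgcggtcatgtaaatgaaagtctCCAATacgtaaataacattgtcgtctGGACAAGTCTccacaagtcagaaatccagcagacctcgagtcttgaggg
BBC3, chr19:47232668-47232917, minus strand: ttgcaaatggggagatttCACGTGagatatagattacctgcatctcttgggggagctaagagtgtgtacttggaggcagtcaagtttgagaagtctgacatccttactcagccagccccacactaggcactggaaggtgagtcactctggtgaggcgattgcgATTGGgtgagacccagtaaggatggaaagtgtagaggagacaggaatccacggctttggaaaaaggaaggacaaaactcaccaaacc
MDM2, downstream promoter, the one p53 is known to act on, chr12:68808767-68809016, plus strand: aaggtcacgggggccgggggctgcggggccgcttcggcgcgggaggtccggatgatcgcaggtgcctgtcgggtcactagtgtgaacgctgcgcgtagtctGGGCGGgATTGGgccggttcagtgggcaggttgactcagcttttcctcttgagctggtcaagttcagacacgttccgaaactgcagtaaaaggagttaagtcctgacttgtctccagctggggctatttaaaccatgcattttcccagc
GDF15, chr19:18385908-18386157, plus strand: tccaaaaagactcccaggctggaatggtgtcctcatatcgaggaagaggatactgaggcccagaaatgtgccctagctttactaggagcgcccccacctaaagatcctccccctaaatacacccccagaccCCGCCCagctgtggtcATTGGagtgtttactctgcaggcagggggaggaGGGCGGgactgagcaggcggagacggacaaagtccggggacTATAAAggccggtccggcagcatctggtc
BTG2, chr1:203305269-203305518, plus strand: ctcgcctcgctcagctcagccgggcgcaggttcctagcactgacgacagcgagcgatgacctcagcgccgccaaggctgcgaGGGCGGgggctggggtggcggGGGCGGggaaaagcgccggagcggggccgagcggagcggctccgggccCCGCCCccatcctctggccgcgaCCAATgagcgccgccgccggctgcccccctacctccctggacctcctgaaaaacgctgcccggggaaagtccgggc

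The table held 16 starts for 8 of the 10 members. A p53 decamer without mismatch was found at 2 of these starts, the innermost SESN1 start (GGACAAGTCT, beginning 49 bases before the start) and 1 FAS start (GGACAAGCCC), against 5.57% of all 35116 starts. GGGCGG was found at 13 of the 16 starts, from 7 members, against 42.6% of all starts. CCAAT was found at 10 starts from 6 members, against 32.0%. TATAAA was found at GDF15 alone among the members, against 10.7% of all starts. CACGTG was found at BBC3 alone, against 6.34%, and TTTGAA at 3 starts of FAS and ZMAT3, against 13.3%. Starts of 1 gene share bases, and no decamer was searched for with mismatches. A start without a marked decamer, as at MDM2, is therefore not shown to lack a p53 element.

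After BMH-21, no Pol I peak was listed in any of the 10 windows, against 28 DMSO Pol I peaks in 8 windows. For Pol II the number was 17 after BMH-21, in 5 windows, against 13 in DMSO, also in 5 windows. The ratio of BMH-21 to DMSO was therefore 1.31 for Pol II in the windows, against 0.401 over the whole lists, while the ratio of whole lists was 0.0454 for Pol I. The Pol II ratio rested on MDM2, which held 10 of the 17 BMH-21 peaks, and was 0.538 without its window. It was 0.750 by length covered (7.07 kb under BMH-21 peaks, 9.42 kb under DMSO peaks), 0.769 among peaks of at least 300 bp and 0.75 among peaks scored at or above the DMSO median. Counted by number, BMH-21 again exceeded DMSO for Pol II without flanks (1.17), with flanks of 10 kb (1.54) and without the SESN1 window (1.63). The whole lists gave ratios of 0.296 by length covered, 0.161 by that width and 0.172 by that score. Which treatment had more at these genes thus depended on the measure and on MDM2.

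**Figure D1:**
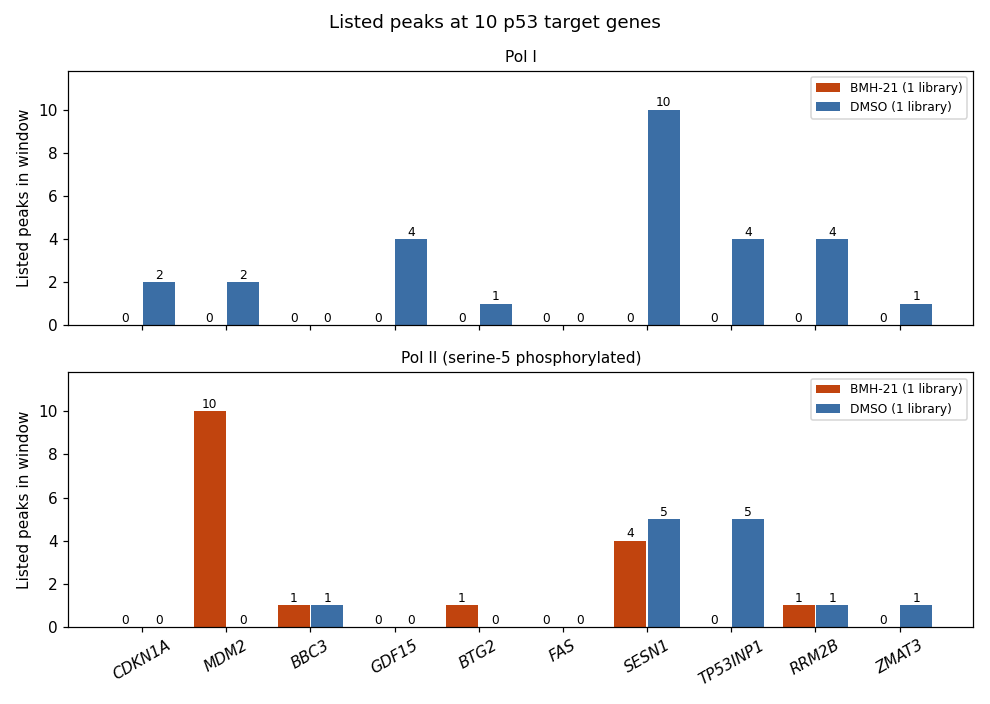
Number of listed peaks (vertical axis) in the window of each gene (horizontal axis) for Pol I (upper panel) and Pol II (lower panel), 1 library per bar. BMH-21 Pol I has 0 peaks at all 10 genes, and MDM2 stands out with 10 BMH-21 Pol II peaks and 0 in DMSO.

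To give these counts a background, the genome was divided into tiles of 42.4 kb, the mean length of the windows. A BMH-21 Pol I peak was listed in 2.05% of tiles, a DMSO Pol I peak in 37.4%, a BMH-21 Pol II peak in 8.98% and a DMSO Pol II peak in 19.0%. With tiles of each window's own length, these shares would put BMH-21 Pol I peaks in 0.2 of the 10 windows, DMSO Pol I peaks in 3.4, BMH-21 Pol II peaks in 0.86 and DMSO Pol II peaks in 1.79. The observed numbers of windows were 0, 8, 5 and 5, in the same order. Tiles include stretches without genes, so they are a low background for a gene. Of the tiles with a listed peak of any library, 4.58% held a BMH-21 Pol I peak, 83.5% a DMSO Pol I peak, 20.1% a BMH-21 Pol II peak and 42.5% a DMSO Pol II peak. Among the 9 windows with any listed peak, the 0 with BMH-21 Pol I and the 8 with DMSO Pol I stood near those shares. The 5 with BMH-21 Pol II lay above theirs, and the 5 with DMSO Pol II lay close to theirs. These shares are for tiles of 42.4 kb, while the windows ran from 14 to 120 kb. Length matters, as a BMH-21 Pol II peak was listed in 3.72% of all 14 kb tiles and 19.7% of all 120 kb tiles. Without flanks, BMH-21 Pol II peaks were listed in 4 windows. More BMH-21 than DMSO Pol II peaks were listed at 2 members (4.61% of tiles), fewer at 3 (16.7% of tiles), the same number at 2, and none in either treatment at 3.

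The lists do not hold every peak that was called. Each peak carries a running number along the genome, and many numbers are absent. A skipped number was taken as a peak that was numbered and is not listed. For each window the number skipped between its listed peaks gave a lower bound, and the number skipped in the whole stretch out to the next listed peaks gave an upper bound. Over the 10 windows, 0 to 271 numbers were skipped for BMH-21 Pol I, 3 to 15 for DMSO Pol I, 42 to 187 for BMH-21 Pol II and 13 to 96 for DMSO Pol II. A window with 0 listed peaks is therefore not shown to lack the polymerase, and this holds most for BMH-21 Pol I, whose stretches ran from 1408 kb at ZMAT3 to 10470 kb at MDM2.

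MDM2, the ubiquitin ligase that marks p53 for degradation and is itself a p53 target, had the most Pol II peaks of the 10 after BMH-21, 10 listed on chromosome 12 between 69204024 and 69245103, against 0 in DMSO. They began 3.02 kb inside the start edge and were spread over the gene. The highest score was 326 for the peak at 69217784 to 69218591, 16.8 kb from the start edge, which was above 96.7% of its list. The peak at 69243864 to 69245103, whose midpoint lay 4.48 kb past the end edge, was the widest at 1240 bp and scored 212. The flank there reaches towards CPM, a carboxypeptidase gene that neighbours MDM2, so which gene that peak belongs to was not tested. The peak nearest the start, at 69204024 to 69204294, scored 55.7, and the other 7 scored 55.8 to 144.

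The numbering shows that the MDM2 run was denser than the listed peaks alone. Between the first and the last of the 10 peaks, 31 numbers were skipped, so that at least 41 BMH-21 Pol II peaks had been numbered there. The skipped numbers were spread along the gene, with 6 between 69206592 and 69212766, 5 in the next 4.81 kb, and 10 in the 8.51 kb before the peak at 69227101. The DMSO Pol II list had no peak in a stretch of 914 kb around MDM2 and skipped 33 numbers in all of it, so at most 33 DMSO peaks could have been numbered at the gene. MDM2 was the 1 member where the BMH-21 lower bound (41) lay above the DMSO upper bound (33), which held for 0.944% of tiles. The 41 counts the peak past the end edge and the 6 numbers skipped before it, which may lie beyond the span. Inside the span the peak numbers ran from 10432 to 10465, so the lead over the DMSO bound of 33 was far narrower there. At 0 members did the DMSO Pol II lower bound lie above the BMH-21 upper bound, against 1.22% of tiles. Of tiles of the same length as the MDM2 window (49 kb), 0.141% had 10 or more listed BMH-21 Pol II peaks, a measure chosen after the MDM2 count was seen. For Pol I, BMH-21 had no listed peak at MDM2, and DMSO had 2, at 69201395 to 69202186 (score 268) and 69202252 to 69202841 (score 152). Both lay within 2 kb of the start edge, and the first outscored 91.6% of its list. For Pol I, the bounds of the 2 treatments overlapped at all 10 members (0.482% of tiles had BMH-21 above DMSO and 0.791% DMSO above BMH-21).

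CDKN1A encodes p21, the inhibitor of cyclin-dependent kinases that carries out much of the p53 arrest, and had no listed Pol II peak in either treatment. The stretch around it nevertheless skipped 31 numbers over 385 kb in the BMH-21 Pol II list, against 9 over 353 kb in the DMSO Pol II list. These are 80.5 skipped numbers per Mb after BMH-21 and 25.5 in DMSO, where the whole lists averaged 12.9 and 8.84. How many of them fell at CDKN1A cannot be read from the lists. BMH-21 Pol I had 0 listed peaks at CDKN1A, and DMSO Pol I had 2, at chromosome 6, 36646095 to 36646655 (score 159) and 36647874 to 36648414 (score 108), with 1 number skipped between them. The first lay 2.09 kb inside the start edge, just outside the 2 kb start zone counted below. Its distance from an annotated CDKN1A start was not measured.

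BTG2, a growth-restraining gene of the BTG/TOB family that recruits the mRNA deadenylase, had 1 BMH-21 Pol II peak and 0 in DMSO. It lay on chromosome 1 at 203277978 to 203278387, 83.6% of the way along the span, with a score of 115 that exceeded 89.5% of its list. The DMSO Pol II list skipped 4 numbers in the 240 kb around BTG2, so up to 4 DMSO peaks could have stood there. BMH-21 Pol I had no listed peak, and DMSO Pol I had 1 at 203275637 to 203275998 (score 65.2), 1.64 kb inside the start edge. No DMSO Pol I number was skipped in that stretch, so this was the only DMSO Pol I peak numbered at BTG2.

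SESN1, a stress sensor of the sestrin family that restrains mTORC1 signalling, had listed peaks in 3 of the 4 lists. Its window is the longest, at 120 kb. BMH-21 Pol II had 4 peaks there, against 5 in DMSO. The BMH-21 peaks scored 51.6 to 63.5, where the median of their whole list was 60.4. The DMSO peaks scored 67.7 to 406, where the median of theirs was 81.0. The strongest DMSO Pol II peak, at chromosome 6, 109415676 to 109417048, covered the start edge and outscored 98.1% of its list. The nearest BMH-21 Pol II peak was 93894 bp from it. The other 4 DMSO peaks lay between 109313082 and 109321077, 95.9 to 103.9 kb into the gene, which is read from the high to the low coordinate. Of the BMH-21 peaks, 3 lay in the same region, between 109319764 and 109321781. The fourth was at 109304250 to 109304484, with its midpoint 2.63 kb past the end edge. ARMC2 and CEP57L1 are neighbours of SESN1, so which gene the peaks at either edge belong to was not tested. The DMSO peak at 109320598 to 109321077 lay between BMH-21 peaks, and peaks of the 2 treatments shared no base there. The BMH-21 peak at 109321089 began 11 bp beyond the DMSO peak that ended at 109321077. Numbered Pol II peaks came to at least 15 and at most 31 after BMH-21, and at least 12 and at most 18 in DMSO, so the ranges overlapped.

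SESN1 also had the most Pol I peaks, 0 after BMH-21 and 10 in DMSO, a number that 0.435% of tiles of its length reached (a measure chosen after the count was seen). The peak at 109415953 to 109417230 covered the start edge with a score of 645, the highest of the 28 DMSO Pol I peaks, and outscored 99.7% of its list. A second, at 109415512 to 109415900, lay beside it (score 68.1). As SESN1 has CEP57L1 and ARMC2 as neighbours, which gene the peaks at the start edge belong to was not tested. The remaining 8 were spread over the gene between 109325296 and 109380850, with scores of 65.1 to 264. No number was skipped among the 10. The innermost SESN1 start, whose letters with a p53 decamer are printed above, was not placed on hg19, so its distance from these peaks is not given.

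**Figure D2:**
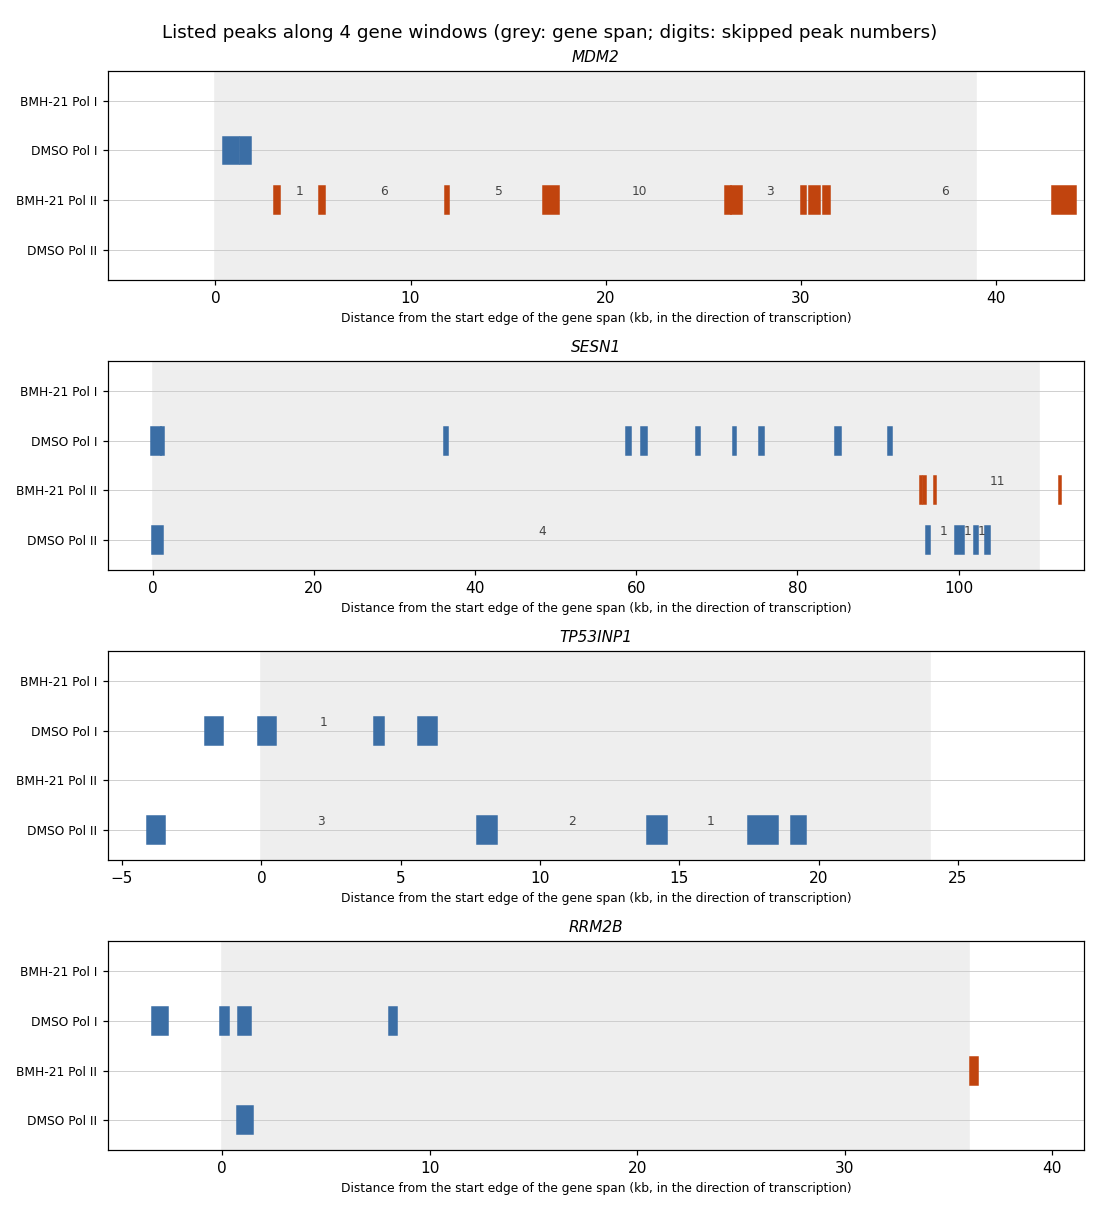
Listed peaks of each library (rows) along 4 gene windows, by distance in kb from the start edge in the direction of transcription, 1 library per row. Boxes are peaks at their true width, grey shading is the gene span, and digits between boxes give the skipped peak numbers. MDM2 has 10 BMH-21 Pol II peaks and 0 DMSO Pol II peaks, SESN1 has both treatments side by side near its end, and TP53INP1 has Pol II peaks in DMSO only among listed peaks.

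TP53INP1, whose product promotes p53 phosphorylation and autophagy, had the reverse of the MDM2 pattern among listed Pol II peaks, with 0 after BMH-21 and 5 in DMSO. The DMSO peaks scored 50.6 to 151, the strongest at 95943459 to 95944523. Of these, 4 lay inside the gene on chromosome 8, from 95942450 to 95954280, and 1 at 95965472 to 95966104, 3.47 kb upstream of the start edge, where NDUFAF6 is a neighbour. The numbering limits what this shows. The BMH-21 Pol II list skipped 28 numbers in the 88.2 kb around TP53INP1, or 318 per Mb, the highest density at any member in any list, and the DMSO list 155 per Mb. Numbered peaks were thus 0 to 28 after BMH-21 and 11 to 16 in DMSO. For Pol I, 0 peaks were listed after BMH-21 and 4 in DMSO. The strongest, at 95961478 to 95962110 (score 207), covered the start edge, and the others scored 57.5 to 185.

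RRM2B, a p53-induced subunit of ribonucleotide reductase that supplies nucleotides for repair, had 1 Pol II peak in each treatment at opposite ends of the gene. The BMH-21 peak was at chromosome 8, 103215589 to 103215977 (score 87.7), with its midpoint 0.22 kb past the end edge. The DMSO peak was at 103250529 to 103251289 (score 123), 0.71 kb inside the start edge. The peaks lay 34551 bp apart. BMH-21 Pol I had no listed peak, and DMSO Pol I had 4 with no number skipped. Of these, 1 was at the DMSO Pol II peak (103250622 to 103251223, score 100.5), 1 covered the start edge (103251689 to 103252115, score 62.8), and the strongest was upstream at 103254639 to 103255389 (score 324), 2.64 kb before the start edge.

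BBC3, which encodes the BH3-only protein PUMA that triggers cell death, had 1 Pol II peak in each treatment, 755 bp apart and both weak. On chromosome 19, the BMH-21 peak at 47733890 to 47734106 scored 54.4, and the DMSO peak at 47734862 to 47735192 scored 50.8, close to the lowest score of 50 in any list. No Pol I peak was listed there in either treatment. FAS, the death receptor of the tumour necrosis factor receptor family, had no listed peak in any list. In DMSO Pol I the peaks on both sides of FAS had consecutive numbers, so no DMSO Pol I peak was numbered in the 163 kb between them. At most 4 Pol II numbers were skipped after BMH-21, in 1448 kb, and at most 2 in DMSO, in 762 kb. FAS had the lowest density of skipped Pol II numbers of the 10 members in both treatments, 2.76 per Mb after BMH-21 and 2.63 in DMSO.

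GDF15, a secreted stress cytokine of the TGF-β superfamily, had no listed Pol II peak in either treatment, with up to 14 skipped numbers in 171 kb after BMH-21 and up to 3 in 53.8 kb in DMSO. It had 0 BMH-21 Pol I peaks and 4 DMSO Pol I peaks, which on its 4 kb span made it the member with the most DMSO Pol I peaks for its length. They ran from 18496682 to 18499536 on chromosome 19, and their scores were 155, 91.8, 65.7 and 50.2 in the direction of transcription, so the one nearest the start scored highest. ZMAT3, a zinc-finger RNA-binding protein that regulates splicing, had 1 DMSO Pol II peak at chromosome 3, 178744783 to 178745317 (score 118), and none after BMH-21. No BMH-21 Pol I peak was listed, and its DMSO Pol I peak lay at 178737932 to 178738312 (score 68.4). Both peaks lay towards the end of the gene, at 81.7% of the span for Pol II and 94.3% for Pol I.

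Along the gene, listed Pol II peaks of both treatments lay mostly past the middle of the span, and DMSO Pol I peaks mostly before it. Within 2 kb of the start edge, BMH-21 Pol II peaks were listed at 0 of 10 members (1.34% of tiles of that length, 4 kb) and DMSO Pol II peaks at 3 (3.31% of tiles), SESN1, RRM2B and BBC3. BMH-21 Pol I peaks were listed there at 0 members (0.235% of tiles) and DMSO Pol I peaks at 6 (5.68% of tiles). The start edges are edges of the given spans, and annotated starts were not placed on hg19. A peak outside the zone may therefore lie near an annotated start, and a peak inside it may not. No share over all gene starts was computed, and the BMH-21 Pol II list is the shorter one, at 0.401 times the DMSO list. With a zone of 5 kb, BMH-21 Pol II peaks were listed at 3 members and DMSO Pol II peaks at 4. DMSO Pol I peaks were then listed at 7 members, with CDKN1A among them. No share of tiles was computed for the 5 kb zone. It takes in the whole spans of BTG2 (5 kb) and GDF15 (4 kb). The BTG2 BMH-21 Pol II peak, 83.6% of the way along its span, is therefore counted in it. The median midpoint of the 17 BMH-21 Pol II peaks was at 78.7% of the span, and 12 lay past 50%. Those of the 13 DMSO Pol II peaks had a median of 75.0%, and 8 lay past 50%, while the 28 DMSO Pol I peaks had a median of 29.0%, and 11 lay past 50%. Past the end edge lay 3 BMH-21 Pol II peaks, at MDM2, SESN1 and RRM2B, against 0 DMSO Pol II peaks. Peaks of 1 gene are not independent, and MDM2 and SESN1 gave 14 of the 17 BMH-21 peaks. SESN1 and TP53INP1 gave most of the DMSO Pol II peaks past 50%, while those of RRM2B (3.0%) and BBC3 (15.2%) lay near the start edge. SESN1 also gave most of the DMSO Pol I peaks past 50%. Skipped peaks have no position and are left out of these counts.

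**Figure D3:**
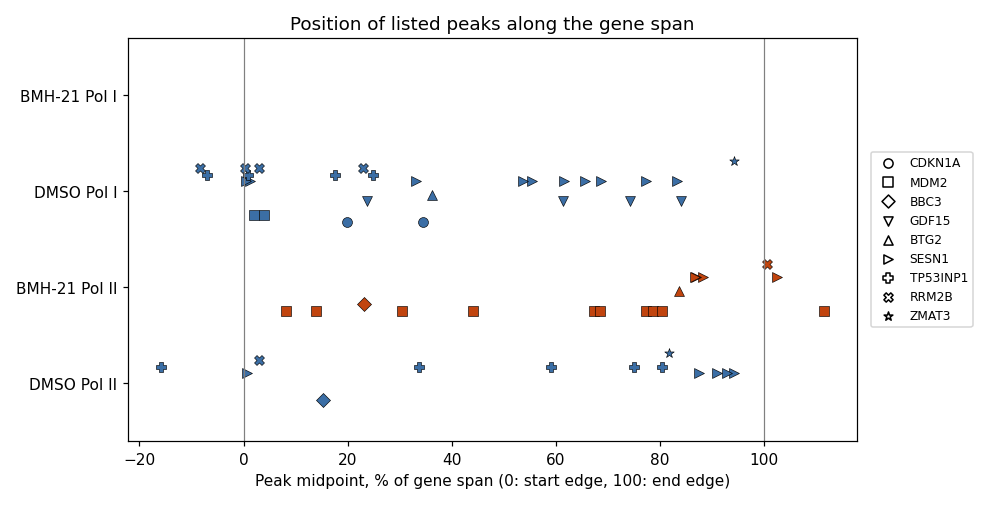
Midpoint of each listed peak as a percent of the gene span (horizontal axis, 0 at the start edge and 100 at the end edge) in each library (rows), with 1 symbol per gene. The median is at 78.7% for BMH-21 Pol II, where MDM2 and SESN1 give 14 of the 17 peaks, at 75.0% for DMSO Pol II and at 29.0% for DMSO Pol I.

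The peaks in the windows were wider than their lists. The median width was 332 bp for BMH-21 Pol II against 269 bp in its whole list, 551 bp for DMSO Pol I against 464 bp, and 633 bp for DMSO Pol II against 498 bp. Scores come from the authors and have no stated scale, which may differ between lists, so each is read against its own list. The exception is the count above that applies the DMSO median score to both lists. The median score was 67.5 for BMH-21 Pol II in the windows against 60.4 in its list, 104 for DMSO Pol I against 98.3, and 121 for DMSO Pol II against 81.0. A score above 90% of the list was held by 3 of the 17 BMH-21 Pol II peaks (all at MDM2), 4 of the 28 DMSO Pol I peaks and 2 of the 13 DMSO Pol II peaks (both at SESN1). The windows held 0.147% of BMH-21 Pol II peaks (exact Clopper-Pearson 95% interval 0.0858 to 0.236), against 0.0451% of DMSO Pol II peaks (interval 0.0240 to 0.0772). Without the MDM2 window, the BMH-21 Pol II share was 0.0607% (interval 0.0244 to 0.125), which overlaps that of DMSO. For Pol I the shares were 0% after BMH-21 (interval 0 to 0.191) and 0.0658% in DMSO (interval 0.0437 to 0.0951), which also overlap. These intervals cover counting error only and treat the peaks of a run as separate.

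A Pol I peak touched a Pol II peak of its own treatment at 2 members, both in DMSO. The share of all DMSO Pol I peaks that touch a DMSO Pol II peak was not computed. At SESN1, the Pol II peak over the start edge overlapped both Pol I peaks there, by 1096 bp and 225 bp. At RRM2B, the Pol I peak of 602 bp lay wholly inside the Pol II peak. BMH-21 had no Pol I peak to overlap. No DMSO Pol I peak touched a BMH-21 Pol II peak in the windows, and the closest pair lay 1182 bp apart at MDM2. Between treatments of the same antibody, no listed peak of the windows touched another. For Pol II, 4 BMH-21 peaks lay within 1000 bp of a DMSO peak, 3 at SESN1 and 1 at BBC3. The share of the whole lists that touches or lies this close between treatments was not computed. Whether these counts are particular to the p53 target genes is therefore unknown.

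The density of skipped Pol II numbers in the stretch that holds each window was higher after BMH-21 than in DMSO at 9 of the 10 members (61.8% of tiles), ZMAT3 being the exception with 9.40 after BMH-21 and 13.1 in DMSO per Mb. It was above the mean of its own list at 8 members for BMH-21 Pol II (19.4% of tiles), at 9 for DMSO Pol II (24.5% of tiles), at 8 for BMH-21 Pol I (41.2% of tiles) and at 6 for DMSO Pol I (31.6% of tiles). The density was computed over the whole stretch between listed peaks, which reaches past the window, so other genes share it.

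**Figure D4:**
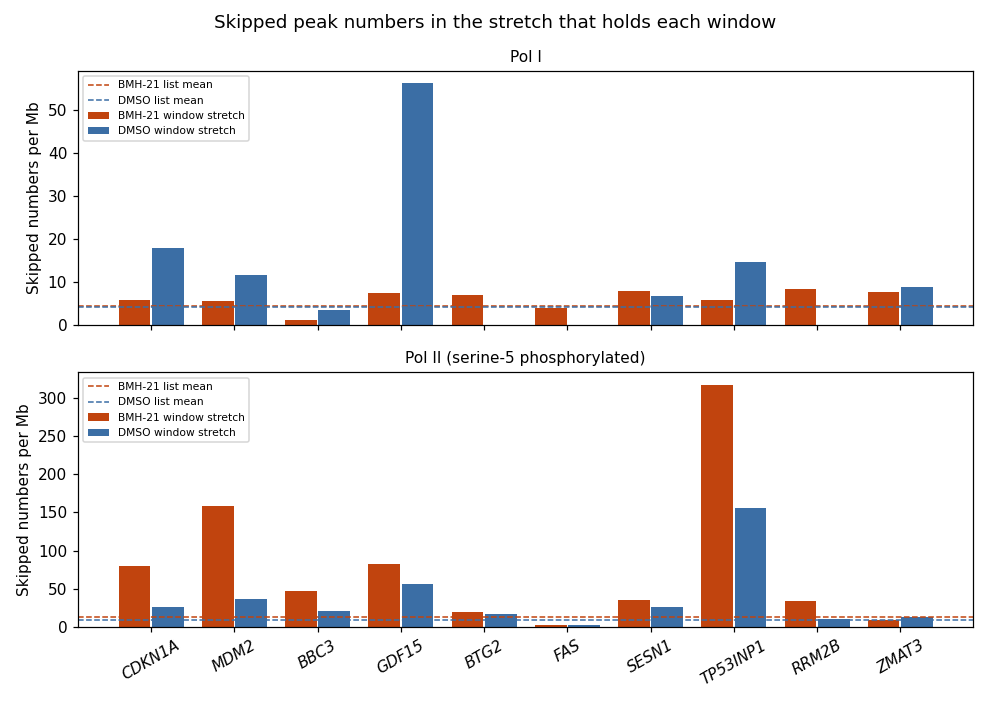
Skipped peak numbers per Mb (vertical axis) in the stretch between listed peaks that holds each gene window (horizontal axis), for Pol I (upper panel) and Pol II (lower panel), 1 library per bar. Dashed lines give the mean of each whole list, and TP53INP1 is highest for Pol II with 318 after BMH-21 and 155 in DMSO.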

How the data were processed

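The labels give 4 ChIP and 2 input samples of LNCaP cells, 1 per group, grouped by title. The 4 deposited peak lists hold chromosome, start, end, a numbered peak name and the authors' score. The score is called a p-value in the file headers, but its values begin at 50, so its scale is unstated. The submitters' processing notes name hg19, Bowtie2 2.2.1, CASAVA 1.8.2 and deepTools 3.5.4. Peak names begin with MACS. The sources used here do not give its version or settings, the use of inputs or the selection of peaks, so depth and enrichment may set which peaks are listed.

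Starts were converted to first bases as a browser shows them. Strand came from RefSeq for 8 genes and from general knowledge for TP53INP1 and RRM2B. All 10 members are named, with every listed peak where a list had at most 3 and otherwise the highest-scored and nearest to the start, with the range of the rest. The members, windows and motifs were chosen with earlier results of these data known. Other p53 pathway genes were not placed, as no hg19 annotation was used. The bounds on skipped numbers were tested on simulated data. No test between treatments was made. Alternatives changed the flank, score, width, midpoint, start zone and overlap rules. Python 3.11.15, NumPy 2.4.6, pandas 2.3.3, SciPy 1.17.1 and matplotlib 3.10.9 were used.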

Additional observations from a re-analysis of the deposited data

How the results depend on the processing

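The 24 results were recomputed to 108 alternative values. Of these, 93 differed from the main value by at most 1.5 times, 11 by more, and 4 turned the direction. The Pol II ratio of BMH-21 to DMSO peaks, 1.31 in the main count, was 0.75 when only peaks reaching the DMSO median score counted, 0.769 with peaks of at least 300 bp, 0.75 by covered length and 0.538 without the MDM2 window. It stayed above 1 without flanks (1.17), with 10 kb flanks (1.54), by midpoint (1.31) and without the SESN1 window (1.63). At that score the windows held 6 BMH-21 Pol II, 8 DMSO Pol II and 15 DMSO Pol I peaks, and BMH-21 Pol II peaks stood in 3 windows. With peaks of at least 300 bp, 10 BMH-21 Pol II peaks remained, and without MDM2 7. Without SESN1 there were 8 DMSO Pol II and 18 DMSO Pol I peaks. Leaving out MDM2 or SESN1 was chosen after seeing the data. A start zone of 5 kb gave BMH-21 Pol II peaks at 3 members. The lower bound of skipped numbers was 25 for BMH-21 Pol II without flanks, and 5 for DMSO Pol I with 10 kb flanks. Apart from the smaller or larger regions counted, the cause was not tested. BMH-21 Pol I had 0 listed peaks in the windows under every alternative run. With none in the main count, smaller windows, score or width limits and leaving out a gene could only give 0 again. Only the 10 kb flanks could have added a BMH-21 Pol I peak, and they added none. The values of 0 fixed in this way are among the 93 above, so that number overstates how stable the results were. No paired analysis was possible because each group has 1 library. Read depth is unknown, and peaks scored below 50 are not in the lists, so weak occupancy could not be assessed.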
